A study of Mus musculus with 6 samples.

Results

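Adipokines are the hormones and other signalling proteins that fat cells secrete into the blood. The 10 adipokine genes described here, of the 55573 genes listed, were taken by their symbols: *Lep*, *Adipoq*, *Retn*, *Cfd*, *Nampt*, *Rbp4*, *Apln*, *Rarres2*, *Metrnl* and *Itln1*. Their transcripts were measured by RNA-seq in inguinal white adipose tissue (iWAT), fat from under the skin of the groin, with 1 library for each of 3 mutant and 3 Wt mice. All 6 were untreated C57BL/6NTac males, 3 months old, on a chow diet. The mutant mice carried THRA K283Q/K288R, a global knock-in in *Thra* that changes lysines of thyroid hormone receptor alpha to which the small protein SUMO is attached; the methods describe the line as homozygous. The receptor is altered in every tissue of these mice, not in fat alone, and the comparison asks how the adipokine transcripts of iWAT differ between the genotypes.

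Leptin (*Lep*) signals the size of the fat stores to the brain, and its level follows fat mass and fat cell size. Adiponectin (*Adipoq*) is made almost only by fat cells, circulates as multimers and sensitises liver and muscle to insulin. Resistin (*Retn*), which in mice comes from fat cells, and retinol binding protein 4 (*Rbp4*), the carrier of vitamin A, have both been linked to insulin resistance, and adipsin (*Cfd*) is complement factor D, the protease that starts the alternative complement pathway.

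The reads of each gene had been scaled to CPM and by a further factor for each mouse (normalized CPM), and a log2 difference is mutant minus Wt on the log2(value + 0.5) scale. Between 19607423 and 24228381 reads fell on genes per mouse, and 3 reads on a gene equal a value of 0.126 to 0.157. In 7 of the 10 genes every mouse had at least 2393 reads, so that counting noise is small, but *Metrnl* (287 to 425 reads) and *Apln* (177 to 268 reads) have counting noise near the size of their spread between Wt mice. *Thra* itself, the gene that carries the mutation, had values of 147, 128 and 117 in Wt mice 1, 2 and 3, against 169.8, 139.9 and 137 in mutant mice 1, 2 and 3. Its log2 difference of 0.19 (SE 0.13, adjusted p = 0.404, limma) did not pass the false discovery rate (FDR) of 0.05, and a transcript level does not test for the amino acid changes.

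The promoters of 5 of these genes are shown because the values below turn on them: *Retn* and *Rbp4*, which moved together across the mice, *Cfd*, whose genotype difference had the opposite sign, *Adipoq*, to which they are compared, and *Lep*. Each sequence covers 250 bases before to 50 bases after a transcription start in RefSeq (GRCm38.p6), 5′ to 3′ on the strand of the gene, and capitals mark the motif matches named after them.
Lep promoter, chr6:29059971-29060270, plus strand: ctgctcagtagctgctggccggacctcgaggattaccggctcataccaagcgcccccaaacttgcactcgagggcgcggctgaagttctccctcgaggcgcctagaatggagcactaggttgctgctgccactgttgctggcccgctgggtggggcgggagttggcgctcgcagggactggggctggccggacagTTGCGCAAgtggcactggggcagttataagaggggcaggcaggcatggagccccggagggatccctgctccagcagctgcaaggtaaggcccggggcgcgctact
Adipoq promoter, chr16:23146286-23146585, plus strand: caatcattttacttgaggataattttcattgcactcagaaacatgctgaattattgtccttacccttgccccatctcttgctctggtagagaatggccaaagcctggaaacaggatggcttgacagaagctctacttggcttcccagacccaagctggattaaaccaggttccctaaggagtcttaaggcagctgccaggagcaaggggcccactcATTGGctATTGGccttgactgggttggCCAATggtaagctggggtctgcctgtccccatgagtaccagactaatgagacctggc
Retn promoter, chr8:3655520-3655819, plus strand: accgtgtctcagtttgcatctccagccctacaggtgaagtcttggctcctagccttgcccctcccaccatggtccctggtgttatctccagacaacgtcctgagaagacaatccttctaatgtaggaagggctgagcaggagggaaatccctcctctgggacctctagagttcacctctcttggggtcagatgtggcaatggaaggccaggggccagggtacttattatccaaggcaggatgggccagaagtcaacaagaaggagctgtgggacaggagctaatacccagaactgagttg
Rbp4 promoter, chr19:38124762-38125061, minus strand: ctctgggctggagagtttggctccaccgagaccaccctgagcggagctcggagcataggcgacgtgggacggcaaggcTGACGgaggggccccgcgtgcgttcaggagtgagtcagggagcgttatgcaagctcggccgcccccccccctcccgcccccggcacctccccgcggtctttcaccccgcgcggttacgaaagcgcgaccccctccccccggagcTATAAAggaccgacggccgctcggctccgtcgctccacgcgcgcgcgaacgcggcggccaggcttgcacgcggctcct
Cfd promoter, chr10:79890603-79890902, plus strand: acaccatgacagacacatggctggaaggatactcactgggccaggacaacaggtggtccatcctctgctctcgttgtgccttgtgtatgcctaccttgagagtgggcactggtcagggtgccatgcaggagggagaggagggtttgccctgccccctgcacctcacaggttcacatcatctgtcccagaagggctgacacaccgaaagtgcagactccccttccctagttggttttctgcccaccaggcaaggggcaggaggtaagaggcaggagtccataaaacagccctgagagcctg
The motifs searched, on both strands, were TGACGTCA (cAMP response element, CRE), TGACG (its core, contained in the former), CACGTG (E-box), AGGTCA (the element of nuclear receptors), its direct repeats DR1 and DR4, the latter with the spacing used by thyroid hormone receptors, TATAAA (the TATA box), CCAAT (bound by NF-Y) and TTGCGCAA, which C/EBP factors can bind. The *Lep* window holds TTGCGCAA, first base at -55 from the start, which occurs in 0.183% of all 32851 RefSeq promoter windows. The *Adipoq* window holds CCAAT 3 times, at -34 and -27 on the other strand and at -7 (a letter string found in 37.4% of all windows). The *Rbp4* window holds TGACG at -172 (20.8% of all windows) and TATAAA at -28 (13.6%). The windows of *Retn* and *Cfd* hold none of the 9 letter strings. DR4 (0.0152% of all windows), DR1 (0.0396%), the full CRE (1.79%) and CACGTG (7.15%) were in none of the 10 windows of the 9 members that have one; the remaining strings in these windows were AGGTCA (16.3% of all windows) at -151 and TGACG at -135 in *Nampt*, and CCAAT at -162, on the other strand, in a second window of *Rbp4*. A match is a string of letters, not a measured binding site.

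Leptin, resistin and retinol binding protein 4 transcripts averaged 1.51 to 1.61 times as high in mutant as in Wt iWAT and adipsin transcripts 0.642 times as high, while adiponectin and chemerin transcripts were at nearly the same level in both genotypes. None of the 9 members that could be tested passed the FDR of 0.05 with limma, where 8.11% of the 16868 genes tested did (5.5% higher and 2.61% lower in mutant mice). At an unadjusted p under 0.05 there were 3 members, *Lep*, *Retn* and *Rbp4*, beside 24.2% of all genes tested. The median log2 difference was 0.09 over the 9 members and -0.05 over all genes tested. With the quasi-likelihood test of edgeR (6.92% of all genes called) and with a correction for GC content (6.02%) 0 members passed, but the Wald test of DESeq2 called 3, *Lep*, *Cfd* and *Rbp4* (12.6% of all genes).

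**Figure D1:**
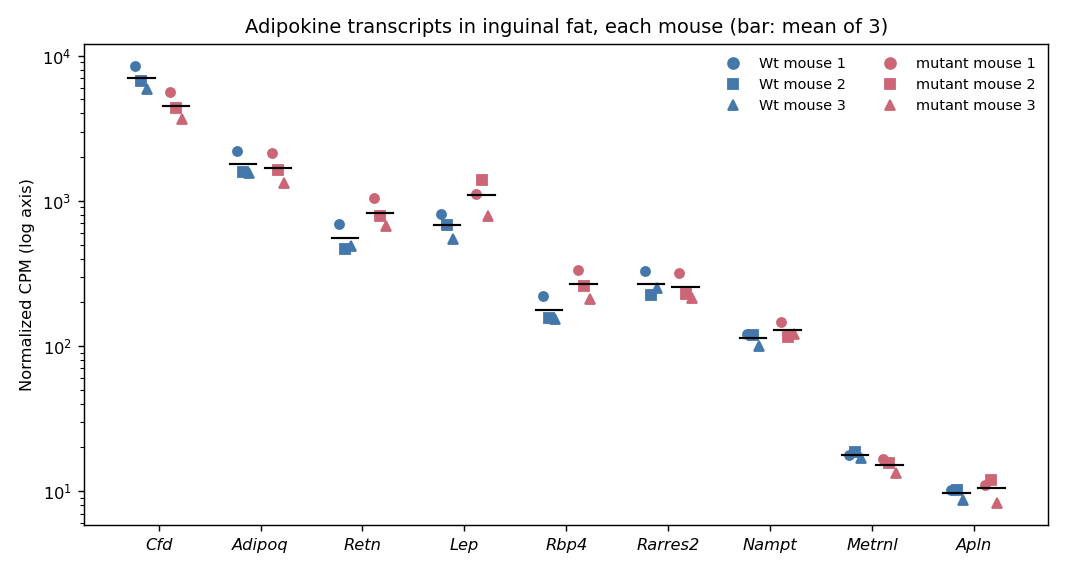
Normalized CPM (log axis) of the 9 detected adipokine genes in each Wt (blue) and mutant (red) mouse, with symbols for mouse numbers and a bar for the mean of 3, in order of level per kilobase in Wt mice. *Cfd* and *Metrnl* are the 2 genes whose genotypes do not overlap, and in both every mutant mouse lies below every Wt mouse. Of all genes tested, 30.6% do not overlap, and in 15.7% every mutant mouse is the lower.

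*Lep* (ENSMUSG00000059201, chromosome 6, 29060220 to 29073877, plus strand, GRCm38) had a normalized CPM of 813, 679.7 and 549 in Wt mice 1, 2 and 3. In mutant mice 1, 2 and 3 it was at 1119.7, 1389 and 781. The lowest mutant mouse lay below the highest Wt mouse, so the genotypes overlapped by that one pair. The means were 681 ± 132 (SD, n = 3) in Wt and 1097 ± 305 (SD, n = 3) in mutant mice, a ratio of 1.61. The log2 difference was 0.67 (SE 0.25, 95% confidence interval 0.06 to 1.27, adjusted p = 0.172, limma), and DESeq2 gave 0.70 (adjusted p = 0.0316). With one mouse left out at a time it lay between 0.48, without mutant mouse 2, and 0.89, without mutant mouse 3. The study itself reported lower serum leptin, smaller inguinal fat pads and smaller fat cells in mutant mice on chow. The *Lep* transcript is a share of the RNA of iWAT and measures neither the serum level nor the fat mass.

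*Retn* (ENSMUSG00000012705, chromosome 8, 3655770 to 3660110, plus strand) was at 698, 468 and 486 in Wt mice, against 1039.8, 784 and 669 in mutant mice. Again 1 mutant mouse, number 3, lay below the highest Wt mouse. The means were 550.4 ± 128 (SD, n = 3) and 831 ± 189.7 (SD, n = 3), a ratio of 1.51 with a log2 difference of 0.59 (SE 0.23, adjusted p = 0.175, limma). *Rbp4* (ENSMUSG00000024990, chromosome 19, 38116629 to 38125281, minus strand) had the same order of mutant mice, at 336, 261 and 211, above 220.4, 155 and 153 in Wt mice except that mutant mouse 3 lay below Wt mouse 1. Its means were 176 ± 38.3 (SD, n = 3) in Wt and 269 ± 62.5 (SD, n = 3) in mutant mice, a ratio of 1.53. The log2 difference was 0.61 (SE 0.21, adjusted p = 0.148, limma; adjusted p = 0.0395, DESeq2).

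*Cfd* (ENSMUSG00000061780, chromosome 10, 79890853 to 79892655, plus strand) was the most abundant member, with between 0.396% and 0.839% of the reads of a mouse, and ranked number 8 of all genes by mean Wt value. It was at 8514, 6740.5 and 5933 in Wt mice, against 5625, 4348 and 3636 in mutant mice. Every mutant mouse was below every Wt mouse, as in 15.7% of all genes tested. The means were 7063 ± 1320.2 (SD, n = 3) and 4537 ± 1008 (SD, n = 3), a ratio of 0.642. The log2 difference was -0.65 (SE 0.34, 95% confidence interval -1.46 to 0.17, adjusted p = 0.303, limma), with an adjusted p of 0.023 by DESeq2 and 0.271 by edgeR's quasi-likelihood test. An exact two-sided permutation test gave p = 0.1, the smallest that 3 mice against 3 allow. Correction of the values for GC content moved the log2 difference of *Cfd* to -0.43.

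*Adipoq* (ENSMUSG00000022878, chromosome 16, 23146536 to 23158028, plus strand) was at 2219, 1581 and 1557 in Wt mice, against 2141, 1619 and 1332 in mutant mice. Both genotypes covered nearly the same range, with means of 1785 ± 376 (SD, n = 3) and 1697 ± 410.2 (SD, n = 3). The log2 difference of -0.08 (SE 0.25, adjusted p = 0.861, limma) had a 95% confidence interval of -0.69 to 0.52. Mutant levels of 0.622 to 1.44 times the Wt level lie within this interval and are not excluded. *Rarres2* (ENSMUSG00000009281, chromosome 6, 48569696 to 48572789, minus strand) encodes chemerin, which attracts immune cells and acts on fat cells themselves. It was at 329, 226 and 249.7 in Wt mice, against 320.4, 227 and 214 in mutant mice, with a log2 difference of -0.08 (SE 0.20, adjusted p = 0.819, limma). The signs of both small differences turned when Wt mouse 1 or mutant mouse 3 was left out. *Rarres2* shares 892 exonic bases with *Lrrc61* on the other strand. *Lrrc61* was at 24.5, 27.3 and 29.5 in Wt mice and rose to 47.4, 43.6 and 43.3 in mutant mice (log2 difference 0.72, adjusted p = 0.00825, limma), and without knowledge of strand in the counting the reads of this stretch cannot be told apart.

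*Nampt* (ENSMUSG00000020572, chromosome 12, 32819545 to 32853349, plus strand), also called visfatin, is the rate-limiting enzyme of NAD salvage and is secreted by fat cells. It was at 122, 119 and 101 in Wt mice, against 147, 116 and 121 in mutant mice, a log2 difference of 0.17 (SE 0.12, adjusted p = 0.443, limma). *Metrnl* (ENSMUSG00000039208, chromosome 11, 121701544 to 121716306, plus strand), a secreted factor related to meteorin, was at 17.8, 18.5 and 16.8 in Wt mice, against 16.7, 15.6 and 13.4 in mutant mice. Every mutant mouse was below every Wt mouse (exact two-sided permutation p = 0.1), but the log2 difference of -0.21 (SE 0.11, adjusted p = 0.305, limma) became 0.0048 after the correction for GC content. The genotypes did not overlap in 2 of the 9 members, both lower in mutant mice. They did not overlap in 30.6% of all genes tested, made up of 15.7% lower and 14.9% higher in mutant mice.

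*Apln* (ENSMUSG00000037010, chromosome X, 48025146 to 48034853, minus strand) encodes apelin, a peptide with vascular and metabolic actions. It was at 10.1, 10.2 and 8.67 in Wt mice, against 11.0, 12.03 and 8.28 in mutant mice, with a log2 difference of 0.09 (SE 0.17, adjusted p = 0.751, limma) whose sign turned without mutant mouse 2. *Itln1* (ENSMUSG00000038209, chromosome 1, 171518122 to 171535294, minus strand) encodes intelectin 1, or omentin. It had 0 reads in all 6 mice and was not tested, and a count of 0 allows values of up to 0.126 to 0.157, depending on the mouse (counting error only).

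**Figure D2:**
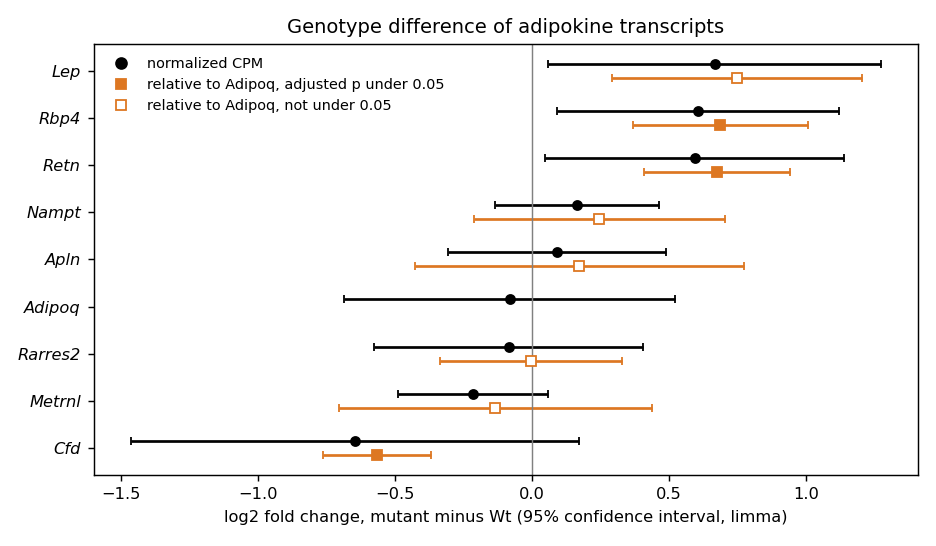
log2 difference (mutant minus Wt, limma) with its 95% confidence interval for the 9 detected adipokine genes, from normalized CPM (black circles) and relative to *Adipoq* of the same mouse (orange squares, filled where the adjusted p is under 0.05). The interval of *Cfd* runs from -1.46 to 0.17 for normalized CPM and from -0.76 to -0.37 relative to *Adipoq*.

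Compared per kilobase of exon, the order of the mean levels was the same in both genotypes. In Wt mice *Cfd* was at 7660.1 normalized CPM per kilobase, *Adipoq* at 1293, *Retn* at 349, *Lep* at 203 and *Rbp4* at 131. *Rarres2* followed at 101, *Nampt* at 22.5, *Metrnl* at 11.2 and *Apln* at 3.07. Neighbours whose ranges over the Wt mice overlapped were *Lep* with *Rbp4* and *Rbp4* with *Rarres2*, although the gene named first was the higher in each of the 3 Wt mice. In mutant mice the ranges of *Lep* (mean 327 per kilobase) and *Rbp4* (mean 201) overlapped, whereas that of *Rbp4* no longer touched that of *Rarres2* (mean 95.5).

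Much of the spread within a genotype was shared by the members. Of the 9, 7 were highest in Wt mouse 1 among the Wt mice and 7 were highest in mutant mouse 1 among the mutant mice, while 7 were lowest in Wt mouse 3 and 8 in mutant mouse 3. The summed level of 20 adipocyte identity genes, among them perilipins and lipid-handling enzymes, ran in the same order. It was at 53808, 41602 and 36363 in Wt mice and 58215, 44687 and 38000 in mutant mice. Abundant genes weigh most in this sum, and *Car3* alone averaged 13248 in Wt and 15888 in mutant mice. The mean log2 value of the same 20 genes was 9.48, 9.19 and 9.06 in Wt mice, against 9.42, 9.06 and 8.92 in mutant mice. The share of all genes with this order was not computed, so it is not shown to be particular to the members. Over all 16868 genes tested, the deviations of Wt mouse 1 from its genotype mean also correlated with those of mutant mouse 1 (0.69). Their correlation with those of mutant mouse 3 was -0.67. In bulk tissue, fewer cells of a type and less RNA per cell cannot be told apart.

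After each gene was centred on its mean log2 value, *Retn* and *Rbp4* differed by a root mean square of 0.03, the smallest of the 36 pairs, followed by *Adipoq* and *Rarres2* with 0.08. The least alike were *Lep* and *Cfd*, with 0.69. Among 14957 genes with a mean value of at least 1, those most like *Lep* were *Ret* (0.08), *Boc* (0.09) and *Gsdme* (0.10). The genes most like *Adipoq* were *Lctl* and *Cdsn*, both with 0.03, and *Adig* (0.04), which encodes adipogenin. The distance between *Retn* and *Rbp4* is near the size of counting noise, as *Rbp4* had 3188 to 6404 reads per mouse. These distances over 6 libraries are a description.

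Because most members varied together between mice of a genotype, each was also divided by *Adipoq* of the same mouse, a comparison chosen after the data were examined. *Retn* was at 0.314, 0.296 and 0.312 times the *Adipoq* value in Wt mice, against 0.486, 0.484 and 0.503 times in mutant mice. *Rbp4* was at 0.0993, 0.0981 and 0.0984 times in Wt mice, against 0.157, 0.161 and 0.159 times in mutant mice. In both genes the mice of a genotype lay close together and the genotypes far apart. The Wt spread of the *Rbp4* ratio was below the counting noise of its 3188 to 5262 reads per Wt mouse. Closeness of that degree is finer than the reads can resolve. The mean ratio of *Retn* was 0.307 ± 0.00992 (SD, n = 3) in Wt and 0.491 ± 0.0102 (SD, n = 3) in mutant mice, and that of *Rbp4* was 0.0986 ± 0.00064 (SD, n = 3) and 0.159 ± 0.00229 (SD, n = 3). On the log2 scale *Retn* rose by 0.67 relative to *Adipoq* (SE 0.12, adjusted p = 0.023, limma) and *Rbp4* by 0.69 (SE 0.14, adjusted p = 0.0443, limma).

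*Cfd* was at 3.84, 4.26 and 3.81 times the *Adipoq* value in Wt mice, against 2.63, 2.69 and 2.73 times in mutant mice. Relative to *Adipoq* it fell by 0.56 on the log2 scale (SE 0.09, adjusted p = 0.0145, limma). *Lep* was at 0.366, 0.430 and 0.353 times in Wt mice, against 0.523, 0.858 and 0.587 times in mutant mice, so that the genotypes no longer overlapped, although the difference of 0.75 (SE 0.20, adjusted p = 0.118, limma) did not pass. The wide spread of *Lep* came with mutant mouse 2. The share of all genes whose genotypes do not overlap after division by *Adipoq* was not computed, so these separations have no background beside them. *Rarres2* was at 0.148, 0.143 and 0.160 times in Wt mice, against 0.150, 0.140 and 0.160 times in mutant mice, a log2 difference of 0.00 with a 95% confidence interval of -0.34 to 0.33.

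Relative to *Adipoq*, 3 of the 8 members that could be tested passed the FDR, *Retn*, *Rbp4* and *Cfd*, where 2.75% of all genes did. The 8 ratios share their denominator and are not independent. With one mouse left out, between 0 and 3 members passed: 3 (*Lep*, *Retn* and *Cfd*) without mutant mouse 1, *Cfd* alone without Wt mouse 2 or Wt mouse 3, and none without Wt mouse 1, mutant mouse 2 or mutant mouse 3. The size of the differences held more closely than the calls for *Retn* (0.65 to 0.69), *Rbp4* (0.68 to 0.70) and *Cfd* (-0.59 to -0.51). That of *Lep* did not, with 0.54 to 0.89. Relative to the mean log2 value of the 20 adipocyte identity genes, the same 3 members passed (5.64% of all genes), *Retn* with 0.71, *Rbp4* with 0.72 and *Cfd* with -0.53, and *Adipoq* was at 0.03 (SE 0.09). This scaling moved the median of all genes from -0.05 to 0.06. Fits with a mouse left out were not run for it. Within each genotype its reference fell from mouse 1 to mouse 3, as *Adipoq* did, so the scalings are not independent.

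**Figure D3:**
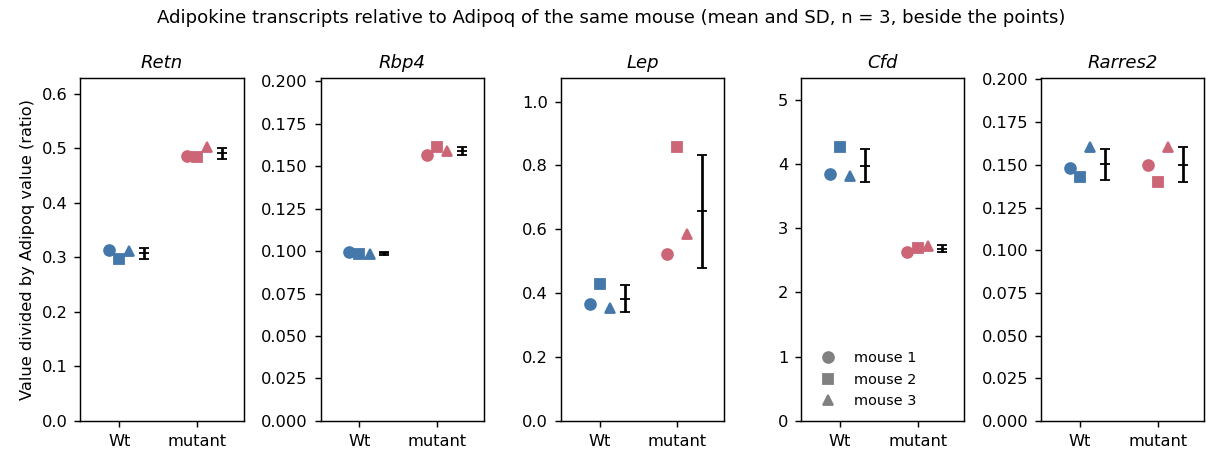
Value of *Retn*, *Rbp4*, *Lep*, *Cfd* and *Rarres2* divided by the *Adipoq* value of the same mouse (linear axes from 0), for 3 Wt (blue) and 3 mutant (red) mice, with the mean and SD beside the points. The genotypes separate for the first 4 genes, with *Retn* at 0.296 to 0.314 in Wt and 0.484 to 0.503 in mutant mice, and coincide for *Rarres2*. The share of all genes that separate on this scale was not computed.

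The receptors and binding partners of the adipokines gave 0 calls among the 13 tested of 14, with a median log2 difference of -0.27. The adiponectin receptor *Adipor2* was at 811, 579 and 604 in Wt mice, against 508, 400.0 and 378 in mutant mice. Its genotypes did not overlap, as in 30.6% of all genes tested, and its log2 difference was -0.63 (SE 0.18, adjusted p = 0.0938, limma). The leptin receptor *Lepr* varied widely, from 8 to 36.0 in Wt and from 3.77 to 15.1 in mutant mice (-0.92, SE 0.69, adjusted p = 0.444, limma). *Stra6l* (-0.74, adjusted p = 0.239, limma) and *Stra6* (-0.57, adjusted p = 0.536, limma), receptors through which *Rbp4* hands over retinol, were at most at 1.90 normalized CPM in any mouse. Of 8 genes for the folding and secretion of adiponectin, 0 passed, and their log2 differences lay between -0.20 (*Plod1*) and 0.17 (*Gstk1*), with *P4hb* and *Ero1l* both at 0.15. At an unadjusted p under 0.05 there were 4 receptor genes and 0 assembly genes, beside 24.2% of all genes tested.

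The alternative complement pathway, which the *Cfd* protein starts, had 1 of the 8 genes reported past the FDR, with a median log2 difference of -0.13. *Cfp*, properdin, which stabilises the convertase, fell from 73.6, 71.4 and 89.5 in Wt mice to 52.4, 60.0 and 52.6 in mutant mice (log2 difference -0.50, SE 0.11, adjusted p = 0.0482, limma). *Masp1*, a gene for complement proteases of which one product can activate factor D, was at 3.77, 1.80 and 1.89 in Wt mice, against 6.24, 7.45 and 5.05 in mutant mice, just short of the FDR (1.22, adjusted p = 0.0505, limma). *C5ar1*, the C5a receptor, was at -0.33 (adjusted p = 0.292, limma), and *Cfb*, factor B, which the *Cfd* protein cleaves, at -0.26 (adjusted p = 0.373, limma). The call of *Cfp* was lost with any of the 6 mice left out, with edgeR's quasi-likelihood test and after GC correction, among others, and held in 3 of the 13 alternatives that keep all mice.

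Of 10 genes tested of the 12 for retinoid handling, beside *Rbp4*, 2 passed. *Aldh1a1*, which makes retinoic acid from retinal, rose from 137, 119 and 86.7 in Wt to 247, 235 and 183 in mutant mice (log2 difference 0.97, SE 0.20, adjusted p = 0.0344, limma). The retinoic acid receptor *Rarg* fell from 71.3, 69.8 and 67.0 to 55.4, 55.6 and 47.3 (-0.39, SE 0.09, adjusted p = 0.0483, limma). *Rara* was at -0.64 (adjusted p = 0.0712, limma) and *Lrat*, which esterifies retinol, at -0.42 (adjusted p = 0.442, limma). The call of *Rarg* was lost with any of the 6 mice left out and in 8 of the 13 alternatives that keep all mice. That of *Aldh1a1* was lost after GC correction and without Wt mouse 2, Wt mouse 3, mutant mouse 1 or mutant mouse 2.

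None of the 11 NAD salvage genes around *Nampt* passed (1 at an unadjusted p under 0.05, beside 24.2% of all genes tested), with a median of -0.07. The largest differences were those of *Naprt* (-0.44, adjusted p = 0.235, limma), *Pnp* (0.40, adjusted p = 0.161, limma), *Cd38* (-0.39, adjusted p = 0.367, limma) and *Parp1* (-0.30, adjusted p = 0.376, limma). Of 24 tested genes for other secreted factors of fat (28 listed), 2 passed, both higher. *Angptl8*, which takes part in the inhibition of lipoprotein lipase, rose from 4.73, 3.40 and 3.66 to 12.5, 8.30 and 7.25 (1.13, SE 0.23, adjusted p = 0.0353, limma). *C1qtnf3*, a relative of adiponectin, rose from 0.386 ± 0.121 (SD, n = 3) to 1.56 ± 0.509 (SD, n = 3), an adjusted p of 0.0332 (limma) at values of few reads. *Tnf* (-1.03, adjusted p = 0.303, limma) and *Sfrp5* (0.85, adjusted p = 0.133, limma) did not pass. The calls of *Angptl8* and *C1qtnf3* were both lost without Wt mouse 1, 2 or 3 or mutant mouse 2. The call of *Angptl8* was also lost without mutant mouse 3, and that of *C1qtnf3* without mutant mouse 1 and without a filter on low values.

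**Figure D4:**
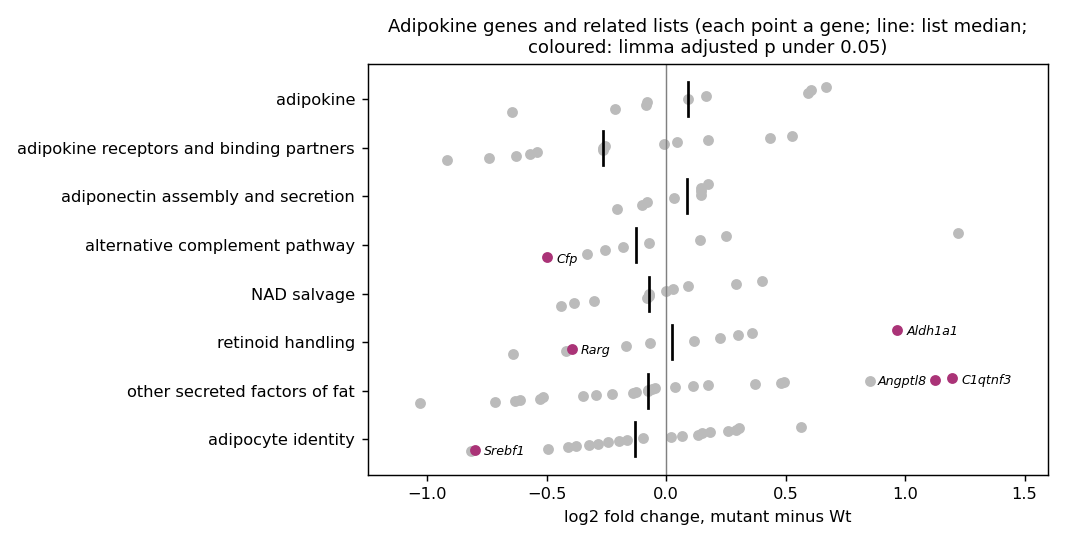
log2 difference (mutant minus Wt, limma) of the tested genes in the adipokine list and 7 related lists, with a line for each list's median and coloured, named points for genes with an adjusted p under 0.05. The adipokine list has 0 coloured points, and its median of 0.09 lies near 0.

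Markers of cells and states that differ between the libraries are given here because the adipokine values are read from whole tissue. Of the 20 adipocyte identity genes 1 passed: *Srebf1*, a regulator of lipid synthesis, fell from 448, 343 and 339 to 251, 196 and 199 (log2 difference -0.80, adjusted p = 0.0304, limma), a call lost when any one of the Wt mice or mutant mouse 2 or 3 was left out and after GC correction. *Plin4* (-0.82, adjusted p = 0.108, limma), *Pnpla2* (-0.49, adjusted p = 0.246, limma) and *Lpl* (0.56, adjusted p = 0.428, limma) did not pass. Mesothelial markers rose in 7 of 9 genes, with a summed level of 8.56 to 44.1 in Wt and 43.1 to 87.3 in mutant mice. The 44.1 was in Wt mouse 1, where *Krt19* (28.5) and *Krt8* (10.1) made up most of it. These 2 genes had negative log2 differences (-0.17 and -0.97) and did not pass. *Msln* was at 0.146 to 0.715 in Wt and 6.28 to 12.6 in mutant mice. Clock genes passed in 8 of 13 (3 higher, 5 lower), *Arntl* at 12.8 ± 2.44 against 38.8 ± 3.18 and *Dbp* at 115 ± 5.63 against 22.3 ± 3.34 (SD, n = 3, Wt against mutant). Of 8 skeletal muscle markers 1 passed, *Myh1*, at 31.1 to 279 in Wt and 1986 to 2405 in mutant mice, and the muscle sum was 13239 to 28505 and 20907 to 32753. Of the 5 brown fat markers tested 1 passed, *Ucp1*, which fell from 12.7 ± 4.60 to 3.40 ± 0.148 (SD, n = 3). Of 8 macrophage markers 1 passed, *C1qa*, which was lower in mutant mice, and 3 had an unadjusted p under 0.05. The macrophage markers went both ways, 2 with a positive and 6 with a negative log2 difference. Among them *Cd163* was at 0.57 (adjusted p = 0.0686, limma) and *Cd68* at -0.51 (adjusted p = 0.0988, limma). Endothelial and stromal markers passed in 0 of 9 each, with 4 and 3 at an unadjusted p under 0.05. Of all genes tested, 24.2% had an unadjusted p under 0.05. The 7 epithelial markers (1 at an unadjusted p under 0.05) had their highest sum, 77.6, in Wt mouse 1, against 4.49 to 24.4 in the other mice. None of 8 lymphocyte markers passed, but their sum was 4.82 in mutant mouse 1 and 325 to 807 in the other mice. Without mutant mouse 1 the log2 differences were 0.63 for *Lep*, 0.42 for *Retn*, 0.44 for *Rbp4* and -0.81 for *Cfd*. The part of these markers in the adipokine values was not tested.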

How the data were processed

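RNA-seq libraries of iWAT from 3 mutant and 3 Wt mice were analysed, 1 per mouse, with genotype and mouse number taken from the labels. The authors deposited 1 signal value per gene and mouse, that is, reads scaled to CPM with an extra factor for each mouse. The submitters' processing notes name Bowtie2 2.1.0, RSEM 1.2.15, edgeR and the build mm10; the use of strand is not given in the sources used here. Every value was a whole number of reads (100% of values, tolerance 0.02 reads), and the recovered reads were 19607423 to 24228381 per mouse. In 27 cases a symbol had been turned into a date, so genes were matched by identifier, and 99.8% of identifiers were found in GENCODE M21 (GRCm38), used for coordinates, exon lengths and GC content. Mice of a genotype differed by far more than sampling noise, and all 6 were counted as separate samples.

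Because the values are normalized, log2(value + 0.5) was tested by genotype with limma 3.58.1 (R 4.3.3, variance trend over the mean) over 16868 genes kept by filterByExpr of edgeR 4.0.16, with Benjamini-Hochberg adjustment over all of them and an FDR of 0.05. Fold changes on this scale understate changes of low genes. The alternatives were edgeR's quasi-likelihood test, the Wald test of DESeq2 1.42.0 and limma-voom on the recovered reads, other scalings, pseudocounts and filters, a correction for GC content in 20 bins, a replicate block, an FDR of 0.1 and leaving out each mouse. Scaling to *Adipoq* or to the adipocyte identity genes was added after the data were examined. The members, the gene lists and the rule for named genes were chosen with earlier results of these data known. The rule takes all members, *Thra*, the genes most like *Lep* and *Adipoq*, and from every other list up to 4 genes, those past the FDR first and then those with the largest change; long marker lists are given by fewer. One gene of a related list is not reported here. Promoter sequences are from RefSeq (GRCm38.p6), with windows for 9 of the 10 members. Tables and plots were made with Python 3.11.15, pandas 2.3.3 and Matplotlib 3.10.9.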

Additional observations from a re-analysis of the deposited data

How the results depend on the processing

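Of 197 alternative values for the log2 fold changes of the 9 tested members, 171 kept their direction and side of the FDR, 17 passed where the reported value had not and 9 turned in sign; with 0 calls as reported, no call could be lost. The signs that turned were those of small differences: *Adipoq* (-0.2621 to 0.0861 with one mouse left out, positive without Wt mouse 1 or mutant mouse 3, and 0.0315 relative to the adipocyte identity genes), *Rarres2* (-0.2649 to 0.0713, positive without the same mice, and 0.0276), *Apln* (-0.0136, without mutant mouse 2, to 0.2426) and *Metrnl* (0.0048 with GC correction, with or without the block). No cause was tested. The 1368 genes past the FDR (928 higher, 440 lower) became 2118 with DESeq2, 2263 at an FDR of 0.1, 463 relative to *Adipoq* (440 higher, 23 lower) and 554 to 1005 with one mouse left out; by library size alone they were 1019 higher and 265 lower, and relative to the adipocyte identity genes 877 and 74. With one mouse left out, the calls were 0 for the adipokine, receptor, adiponectin assembly and NAD salvage lists, 0 to 1 for complement and for retinoid handling, 0 to 3 for other secreted factors, 0 to 2 for adipocyte identity and 7 to 9 for the clock, with fewer mice tested; relative to *Adipoq* they were 0 to 3 for the adipokines.

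Mice of each genotype are numbered 1 to 3. Over 16868 genes, a Wt mouse and the mutant mouse of its number deviated from their means with correlations of 0.69, 0.06 and 0.56, so the numbers were not taken as pairs; Wt mouse 2 correlated best with mutant mouse 3 (0.33) and mutant mouse 2 with Wt mouse 3 (0.54). With the number as a replicate block, 4063 genes passed, or 3253 with GC correction as well, and 4 adipokine genes passed in either case (24.1% and 19.3% of all genes): *Lep*, *Retn*, *Cfd* and *Rbp4*. With the block, and with GC correction and the block in that order, calls were 7 and 6 for receptors, 0 and 1 for adiponectin assembly, 3 and 3 for complement, 2 and 1 for NAD salvage, 6 and 8 for other secreted factors and 6 and 5 for adipocyte identity.

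Among the lists, DESeq2 called 3 adipokine, 2 receptor, 2 complement, 8 other secreted and 2 adipocyte identity genes; scaling by library size called 1 receptor, 5 other secreted and 2 adipocyte identity genes; and an FDR of 0.1 called 1 receptor, 2 complement and 6 other secreted genes, and a pseudocount of 1 called 2 complement genes. Without a filter, 1 receptor, 0 complement, 1 retinoid and 1 other secreted gene passed. edgeR's quasi-likelihood test, limma-voom, recomputed TMM factors, a pseudocount of 0.1 and a filter of at least 10 reads on average each gave 0 complement genes and 1 retinoid gene, and GC correction alone left 0 complement, 0 retinoid and 0 adipocyte identity genes. Relative to *Adipoq* or to the adipocyte identity genes, 3 adipokine genes passed. Depth limits *Itln1* and the genes of few reads in the related lists, several of which were not tested.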
